A study of Mus musculus with 12 samples.

Results

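The genes described here are the upstream regulators of mitochondrial gene expression: the PGC-1 coactivators (Ppargc1a, Ppargc1b and Pprc1), the estrogen-related receptors (Esrra, Esrrb and Esrrg) and the nuclear respiratory factors with their cofactor (Nrf1, Gabpa, Gabpb1 and Hcfc1). They were chosen by symbol from a list of 10 genes. Of these 10, 9 had a probe under that symbol, out of 18148 symbols in the table, with 12 probes between them. Pprc1 was not analysed here. A probe was kept when at least 4 of 12 arrays gave it a detection p-value, which sets its signal against the negative controls, below 0.05. By that filter 7 of the 9 genes entered the test, among 10967 genes in all, and Esrrb and Esrrg did not.

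PGC-1 coactivators do not bind DNA themselves. They dock on transcription factors and recruit the machinery that starts transcription. The estrogen-related receptors are orphan nuclear receptors that bind DNA without a known natural hormone, and with a PGC-1 partner they switch on genes of the respiratory chain, the TCA cycle and fatty acid oxidation. NRF-1, the product of Nrf1, and NRF-2, the complex of the products of Gabpa and Gabpb1, bind the promoters of many respiratory genes directly, and HCF-1, the product of Hcfc1, bridges NRF-2 and the PGC-1 proteins. In the small intestine, PGC-1 coactivators are known for their part in the mitochondrial content of the surface epithelium.

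The 12 samples were tumours of the ileum, the last stretch of the small intestine, from mice of the FVB/N strain aged 3 to 4 months, each on 1 Illumina bead array. The arrays numbered 7 to 12 were labelled iPGC-1β/APCmin (n = 6) and those numbered 1 to 6 FVBN/APCmin (n = 6). APCmin is an allele of the tumour suppressor Apc that gives mice many intestinal tumours, and the labels put it in all 12 samples, so normal ileum is not part of the comparison. The labels do not spell out iPGC-1β, which is known as a mouse line with added PGC-1β in the intestinal epithelium. The promoter of the construct, the sex of the mice and the number of tumours per mouse are not given in the labels, so p-values measure the spread between samples, which may be technical in part. The comparison asks how the regulators of mitochondrial genes stood in tumours labelled as having extra PGC-1β. Median raw intensity was 145.6 to 170.5 on arrays labelled iPGC-1β/APCmin and 139.3 to 167.9 on arrays labelled FVBN/APCmin. Of 25697 probes, between 12858 and 14445 were detected on arrays labelled iPGC-1β/APCmin and between 13762 and 14023 on arrays labelled FVBN/APCmin. Arrays 8, 10, 11 and 12 (13498, 13117, 12858 and 13434) lay below every FVBN/APCmin array. Array 7 (13813) lay within the FVBN/APCmin range and array 9 (14445) above it. The part of detection in the differences below was not tested. Of the markers of intestinal epithelium 8 of 8 were kept, and of the ileal enterocyte markers 4 of 6, with Slc10a2 and Fabp2 below the filter. Of the epithelium markers 6 of 8 were lower in the arrays labelled iPGC-1β/APCmin (median difference -0.40, 4 with an unadjusted p below 0.05). The 4 kept enterocyte markers were all lower (median -0.49, 1 with an unadjusted p below 0.05), and 6 of 6 markers of Apc tumours were higher (median 0.81, 3 with an unadjusted p below 0.05), though 0 genes of these 3 lists passed by limma. Levels below are log2 intensities after background correction and quantile normalization, and each difference is the iPGC-1β/APCmin mean minus the FVBN/APCmin mean on that scale.

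Arrays 6 and 7 stood apart from their groups in lymphocyte transcripts and in Apc tumour markers. The mean centred log2 level of 16 T, NK and B cell genes lay between -2.20 and -1.21 on arrays 8 to 12, all labelled iPGC-1β/APCmin, and was 1.92 on array 7 of that group. Among arrays labelled FVBN/APCmin it lay between 1.43 and 1.79 on arrays 1 to 5 and was -0.81 on array 6. Of the T and NK cell genes 9 of 11 on the array were kept, with Cd8a and Gzmb below the filter, and of the B cell genes 7 of 7. In the T and NK list 9 of 9 genes were lower in the arrays labelled iPGC-1β/APCmin, 9 had an unadjusted p below 0.05 and 4 passed (Klrd1, Nkg7, Cd8b1 and Cd3e), beside 1.23% of all genes tested that passed as lower. In fits without 1 array these 4 calls were lost in 7, 9, 9 and 10 of 12, and Cd3e also lost its call in 8 of 13 other settings. In the B cell list 7 of 7 genes were lower, 0 passed by limma and 7 had an unadjusted p below 0.05. In lymphocyte level each of arrays 6 and 7 lay nearer the other group. The mean centred level of Apc tumour markers placed both arrays in a like way. Array 7 was the lowest of all 12 at -0.95, beside -0.88 to -0.48 on arrays 1 to 5. Array 6 stood at 0.23, above arrays 8 (0.13) and 11 (0.05) labelled iPGC-1β/APCmin. Whether both labels are as intended is not known. By the mean centred level of respiratory chain genes, array 7 (-0.19) was the lowest of its group. It lay just above the highest array labelled FVBN/APCmin, array 2 (-0.22), and array 6 (-0.70) lay within its own group. The level of other estrogen-related receptor targets was 0.38 on array 7, above every array labelled FVBN/APCmin, of which array 6 (-0.15) was the highest. Both lists were chosen with earlier results of these data known, so these levels are no independent check of the labels. In whole tumours, fewer cells of a type and less RNA per cell cannot be told apart.

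Letters that these regulators are known to bind occurred in 4 respiratory chain genes that rose in the arrays labelled iPGC-1β/APCmin. The windows below, shown because each holds a match to a regulator's site, are RefSeq promoter sequences of build GRCm38.p6, written 5′ to 3′ on the gene's strand (the minus strand in all 4), with the match in capitals. They hold all matches found among the 19 respiratory chain genes that passed and had a promoter sequence, and the 4 genes were chosen after their values were seen. Sdhd, which encodes a membrane anchor of respiratory complex II, holds the extended ERR site TCAAGGTCA, read on the opposite strand, 36 bases downstream of its start site (chr9:50603800-50603823, where the sequence ends), and it rose by 0.87 on the log2 scale (limma adjusted p = 0.0223). Atp5g3, which encodes the membrane ring subunit of ATP synthase, holds the same site, also on the opposite strand, 52 bases upstream of its start (chr2:73911360-73911388), and it rose by 0.55 (adjusted p = 0.0465). Cox6a1, a subunit of complex IV, holds the NRF-1 site, a palindrome of GCGCA followed by TGCGC, 162 bases upstream (chr5:115349101-115349130), and it rose by 1.17 (adjusted p = 0.0365). Ndufs3, a core subunit of complex I, holds the site CCGGAAGT of ETS factors such as NRF-2, read on the opposite strand, at its start site (chr2:90904704-90904731), and it rose by 0.98 (adjusted p = 0.0298).
Sdhd: ggttgtagagTGACCTTGAgccct
Atp5g3: tgttacaaagTGACCTTGAgcgtcttccc
Cox6a1: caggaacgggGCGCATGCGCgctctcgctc
Ndufs3: gcacatttccACTTCCGGtccgtgccct

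The search covered both strands of the window from 250 bases before to 50 bases after each annotated start. Among 57 tested respiratory chain genes with a promoter sequence, the extended ERR site occurred in 3.51%, against 0.466% of 27025 genes with a promoter sequence. The shorter ERR site AAGGTCA, which lies within the extended one, occurred in 12.3% of the respiratory chain genes and 5.38% of all genes. The shares for the NRF-1 site were 7.02% and 1.07%, and for the NRF-2 site 7.02% and 4.31%. Among the 19 genes that passed, the extended and the shorter ERR site each occurred in 10.5%, and the NRF-1 and NRF-2 sites each in 5.26%. For all but the extended ERR site these shares were below those of the 57 tested genes. These shares describe letters in a short window, rest on few genes in the respiratory list and were not tested. The promoter table held 9 of the 10 regulators (all but Ppargc1b), and none of the 4 motifs was present in those windows.

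No regulator passed the test. Of 7 tested members 0 had a limma adjusted p below 0.05, and 3 (Esrra, Gabpa and Nrf1) had an unadjusted p below 0.05. Over all 10967 genes tested, 3.45% were called and 23.3% had an unadjusted p below 0.05. The differences of the 7 members had a median of 0.01, beside -0.01 over all genes, with 4 higher and 3 lower. The groups did not separate completely for any of the 7, where 2.82% of all genes tested had groups that did not overlap (1.93% with the arrays labelled iPGC-1β/APCmin higher). Counts past the threshold for all genes moved with single arrays, between 128 and 1822 when 1 array was left out. Of the 25 fits that left out 1 array or changed a processing step, 22 called none of the members. Nrf1 was called without array 7 and without arrays 6 and 7 together, and Nrf1 and Esrra were called with array quality weights. Over all genes these fits called 1822 of 10861, 2174 of 10699 and 2403 of 10967, in that order.

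**Figure D1:**
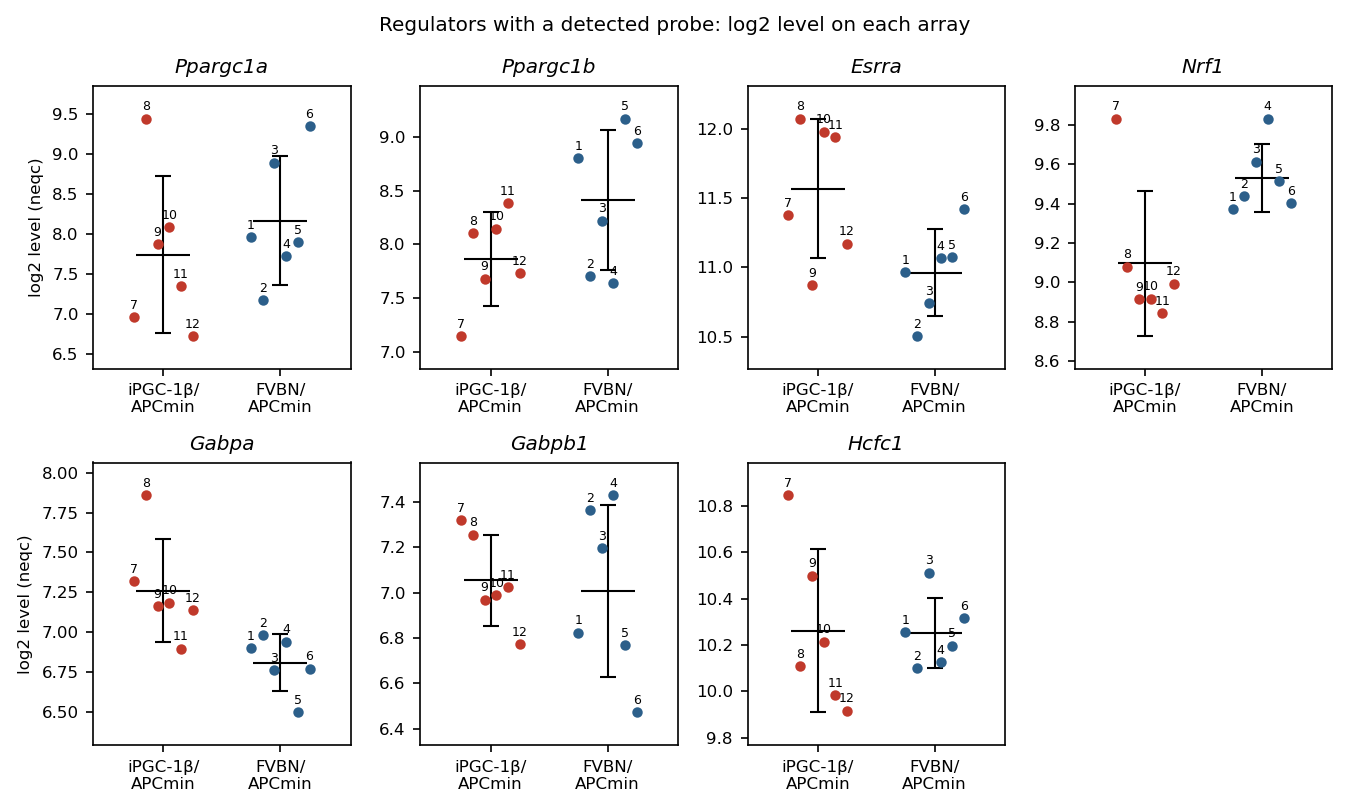
Log2 level after background correction and quantile normalization (vertical axis) of the 7 tested regulators on each array, with arrays labelled iPGC-1β/APCmin in red and arrays labelled FVBN/APCmin in blue. Points carry the array number, and bars give the mean and SD (n = 6 per group). Nrf1 on array 7 stands with the FVBN/APCmin arrays, and Esrra is highest on arrays 8, 10 and 11.

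Ppargc1b, which encodes PGC-1β, is the gene that the genotype names and so the check of the labels. Its raw signal intensity on arrays 7 to 12, labelled iPGC-1β/APCmin, was 264, 341, 359, 338, 461 and 341. On arrays 1 to 6, labelled FVBN/APCmin, it was 559.8, 365, 458, 316, 762 and 452. All 12 values were detected, and the groups overlapped. After normalization 6 of 6 arrays labelled iPGC-1β/APCmin had a Ppargc1b level under the FVBN/APCmin mean, and array 7 was the lowest of all 12. The log2 difference was -0.55, with a 95% confidence interval of -1.20 to 0.10 (limma adjusted p = 0.296), and an exact two-sided permutation test over all relabelings of the arrays gave p = 0.115. The difference ran from -0.70 to -0.40 when 1 array was left out and was -1.07 in the model that adds the lymphocyte level (limma adjusted p = 0.350). The array had 1 probe for Ppargc1b, and whether it lies in the sequence carried by the construct was not analysed here. If it lies outside, it does not check the genotype, so the directions in this account follow the labels.

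Ppargc1a, the gene for PGC-1α, the coactivator induced by cold and exercise in fat and muscle, was the most variable of the tested regulators. Its log2 level was lowest at 6.72, had a median of 7.61 and was highest at 9.44 on arrays labelled iPGC-1β/APCmin. The same figures on arrays labelled FVBN/APCmin were 7.17, 7.93 and 9.35. Both groups covered nearly the same span, and the highest array exceeded the lowest by 6.57-fold. Its within-group SD of 0.90 was larger than that of 92.8% of genes tested, beside a median SD of 0.42. The difference was -0.43 (SE 0.46, limma adjusted p = 0.617), less than the spread between arrays. The highest array in each group, array 8 (9.44) and array 6 (9.35), was also the highest in its group for the smooth muscle level, at 1.52 and 1.42. Other arrays did not keep this order. Array 3 had the next highest Ppargc1a level (8.89) at a smooth muscle level of -0.25, while array 5 had 7.90 at 0.57. Fitted with the smooth muscle level in the model the Ppargc1a difference was -0.39 (SE 0.32, limma adjusted p = 0.468). It ran from -0.76 without array 8 to -0.19 without array 6, and was -0.03 without arrays 6 and 7 and -1.39 in the model that adds the lymphocyte level.

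Esrra, which encodes ERRα, the estrogen-related receptor found in most tissues that burn fat and the main partner of PGC-1 proteins, had the highest difference among the members. Its log2 level on arrays 7 to 12, labelled iPGC-1β/APCmin, was 11.38, 12.08, 10.87, 11.98, 11.94 and 11.17. On arrays 1 to 6, labelled FVBN/APCmin, it was 10.97, 10.50, 10.74, 11.07, 11.08 and 11.42. Arrays 8, 10 and 11 lay above every FVBN/APCmin array, while arrays 7, 9 and 12 fell within the FVBN/APCmin range. The means were 11.57 ± 0.50 in iPGC-1β/APCmin and 10.96 ± 0.31 in FVBN/APCmin (SD, n = 6 each). The difference of 0.61 (SE 0.23, 95% confidence interval 0.11 to 1.10), a 1.52-fold change, did not pass over all genes tested (limma adjusted p = 0.135). With array quality weights it was 0.78 and passed (limma adjusted p = 0.0140), in a fit that called 2403 of 10967 genes. Adding the lymphocyte level to the model gave 0.38 (SE 0.32, limma adjusted p = 0.774).

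Esrrb encodes ERRβ, a receptor known from mouse embryonic stem cells and the trophoblast, and its probe was near background. It was detected on 2 of 6 arrays labelled iPGC-1β/APCmin (arrays 8 and 11, at intensities of 173 and 181) and on 1 of 6 arrays labelled FVBN/APCmin (array 6, at 138). On the other 9 arrays the intensity lay between 130.5 and 152.5 without detection. Esrrg encodes ERRγ, a receptor of heart, muscle and brain, and its probe was not detected on any of 12 arrays, at intensities of 118 to 152 in iPGC-1β/APCmin and 113 to 136 in FVBN/APCmin. In a fit without the filter, over 18148 genes, the Esrrb difference was 0.36 (SE 0.25, limma adjusted p = 0.534). The Esrrg difference in that fit was 0.17 (SE 0.07, limma adjusted p = 0.209), from a probe not told apart from background on any array.

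**Figure D2:**
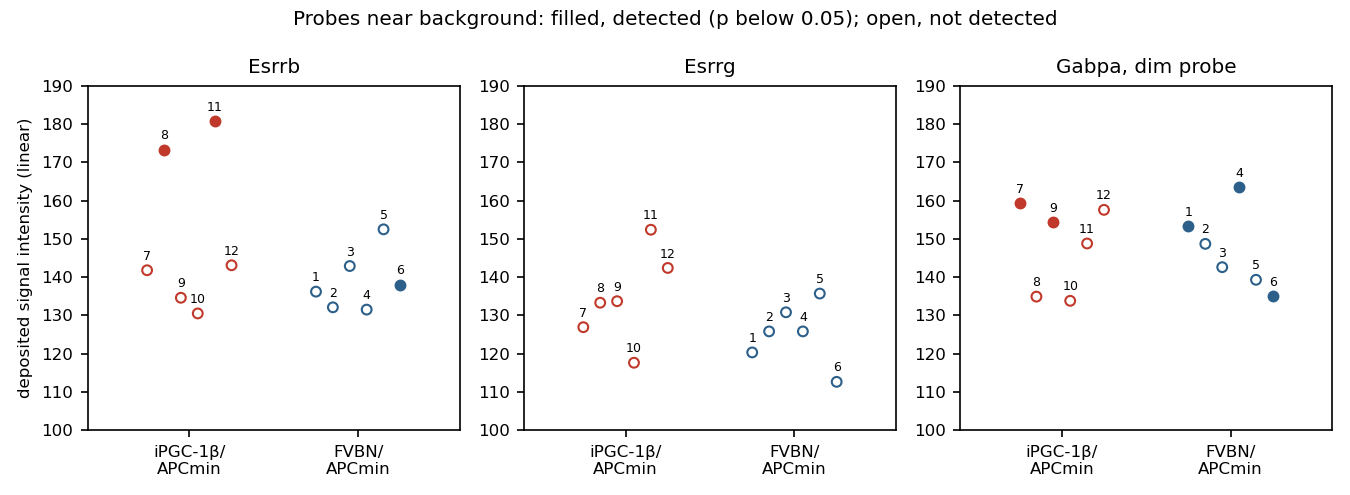
Deposited linear signal intensity (vertical axis, linear, not starting at 0) of the Esrrb probe, the Esrrg probe and the dimmest of 3 Gabpa probes on each numbered array, with iPGC-1β/APCmin in red and FVBN/APCmin in blue. Filled points were detected (p below 0.05) and open points were not: 3 of 12 arrays for Esrrb, 0 of 12 for Esrrg and 5 of 12 for this Gabpa probe.

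Nrf1, which encodes NRF-1, was lower on all but 1 of the arrays labelled iPGC-1β/APCmin. Among fits without 1 array, Nrf1 passed only with that array left out. Arrays 7 to 12, labelled iPGC-1β/APCmin, had log2 levels of 9.83, 9.08, 8.92, 8.92, 8.84 and 8.99. On arrays 1 to 6, labelled FVBN/APCmin, it was 9.37, 9.44, 9.61, 9.83, 9.51 and 9.40. Arrays 8 to 12 lay below every FVBN/APCmin array, and array 7 lay at the top of the FVBN/APCmin range. Means were 9.10 ± 0.37 in iPGC-1β/APCmin and 9.53 ± 0.17 in FVBN/APCmin (SD, n = 6 each), a difference of -0.43 (SE 0.18, limma adjusted p = 0.173). Without array 7 the difference was -0.58 and passed (limma adjusted p = 0.0159), and without arrays 6 and 7 it was -0.61 (limma adjusted p = 0.0156). Calls over all genes also rose in these fits, to 1822 of 10861 without array 7 and 2174 of 10699 without arrays 6 and 7. With all arrays 378 of 10967 passed. Leaving out any other single array gave adjusted p-values that did not pass, up to 0.310.

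In Nrf1 and in lymphocyte level the arrays fell into a low and a high cluster, which nearly coincide with the groups. Arrays 8 to 12 were low in both measures, though array 11 had the highest lymphocyte level of these 5 (-1.21) and the lowest Nrf1 (8.84). Within arrays 1 to 5 the order of the measures also differed, since array 1 had the highest lymphocyte level (1.79) and the lowest Nrf1 (9.37). Array 7, with the highest lymphocyte level of all (1.92), had the same Nrf1 level as array 4 to 2 decimals (9.83). Array 6 had few lymphocyte transcripts (-0.81) and an Nrf1 level of 9.40, within the 9.37 to 9.83 of the other FVBN/APCmin arrays. Adding the lymphocyte level to the model gave an Nrf1 difference of -0.03 (SE 0.21, limma adjusted p = 0.982). That level differs between the groups, and with it 5 of all genes tested passed by limma and 1147 had an unadjusted p below 0.05.

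**Figure D3:**
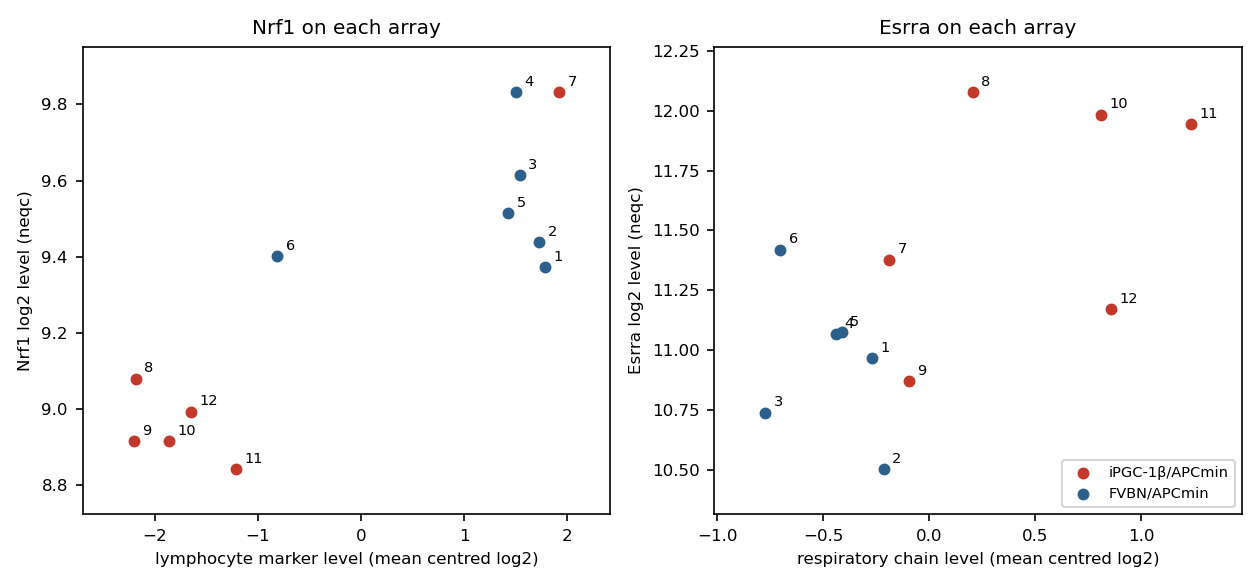
Left, Nrf1 log2 level against the lymphocyte marker level (mean centred log2 of 16 genes) on each numbered array. Right, Esrra log2 level against the respiratory chain level (mean centred log2 of 66 genes), with iPGC-1β/APCmin in red and FVBN/APCmin in blue. Array 7 lies with arrays 1 to 5 in the left panel, array 6 is low in lymphocyte level with Nrf1 at 9.40, and in the right panel arrays 10 and 11 are high in both measures, array 8 has the highest Esrra level (12.08) at a respiratory level of 0.20, and array 12 has a respiratory level of 0.85 with Esrra at 11.17.

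Gabpa, which encodes the DNA-binding ETS subunit of NRF-2, had 3 probes that differed in brightness and in result. The brightest, used in the test, had log2 levels with a lowest value of 6.90, a median of 7.17 and a highest of 7.86 on arrays labelled iPGC-1β/APCmin. The corresponding values on arrays labelled FVBN/APCmin were 6.50, 6.83 and 6.98. Every array labelled iPGC-1β/APCmin exceeded the FVBN/APCmin mean, 5 of 6 exceeded every FVBN/APCmin array, and array 11 alone overlapped. The difference was 0.45 (SE 0.19, limma adjusted p = 0.171). For the other two probes, detected on 11 and 5 of 12 arrays, the differences were 0.14 (SE 0.30) and -0.02 (SE 0.20), with limma adjusted p-values of 0.830 and 0.963 over all kept probes. The mean of the 3 probes differed by 0.19 (limma adjusted p = 0.595), so the size of the Gabpa difference depended on the probe.

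Gabpb1, the ankyrin-repeat partner that carries the activating domain of NRF-2, had close group means on both of its probes. The probe used in the test averaged 7.05 ± 0.20 in iPGC-1β/APCmin and 7.01 ± 0.38 in FVBN/APCmin (SD, n = 6 each). Its difference was 0.05 (95% confidence interval -0.39 to 0.48, limma adjusted p = 0.915), and that of the second probe was -0.01. The sign of such a small value turned with several settings. The lowest array in FVBN/APCmin was array 6, at 6.47, and the highest was array 4, at 7.43.

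Hcfc1, the gene of the chromatin cofactor HCF-1, had almost equal group means of 10.26 ± 0.35 in iPGC-1β/APCmin and 10.25 ± 0.15 in FVBN/APCmin (SD, n = 6 each). The difference was 0.01 (95% confidence interval -0.36 to 0.38, limma adjusted p = 0.977), and its sign also turned with some settings. Array 7 was the highest of all 12, at 10.85, while arrays 11 and 12 (9.98 and 9.92) lay below every FVBN/APCmin array. Hcfc1, Nrf1, Gabpa and Gabpb1 all had a within-group SD under the median of all genes tested, at 0.27, 0.29, 0.26 and 0.30 against 0.42.

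The genes that these regulators are known to switch on had higher levels under the label iPGC-1β/APCmin. Of 66 tested genes of the respiratory chain, 66 were higher, 22 passed as higher (33.3%) and 0 as lower, with a median difference of 0.93. Over all genes tested, 2.22% passed as higher and 1.23% as lower. Ndufv2, Ndufa10, Ndufc2 and Ndufb5, all of complex I, rose 2.21-fold, 1.84-fold, 2.66-fold and 2.83-fold. The mean centred level of the respiratory list was -0.19 to 1.23 on arrays labelled iPGC-1β/APCmin and -0.77 to -0.22 on arrays labelled FVBN/APCmin, with array 7 the lowest of its group. Leaving out 1 array gave 6 to 55 respiratory genes past the threshold, and the count moved by over 1.5 times without any of arrays 1 to 5, 7 and 10 to 12. In the model that adds the lymphocyte level 0 passed by limma and 29 had an unadjusted p below 0.05, while the median difference was 0.76. The shifts of the epithelial, enterocyte and Apc tumour markers, with medians of -0.40, -0.49 and 0.81, stood beside these differences, and their part was not tested. The lists were chosen with earlier results of these data known, so their direction is no independent evidence.

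**Figure D4:**
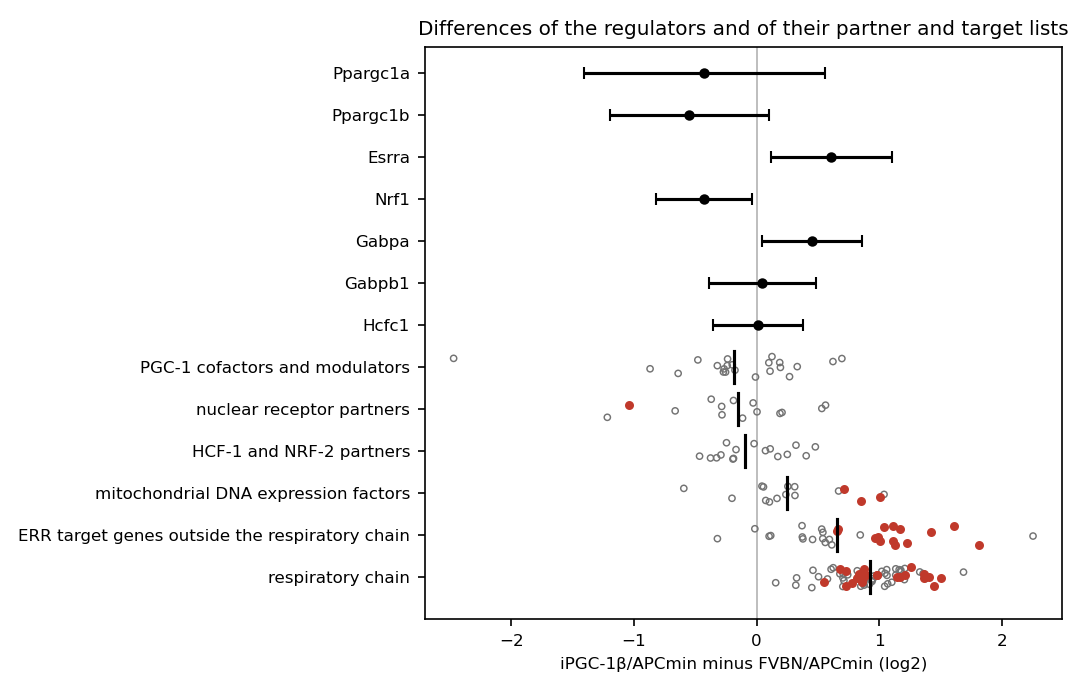
Difference iPGC-1β/APCmin minus FVBN/APCmin in log2 units (horizontal axis). Black points with bars are the 7 tested regulators with 95% confidence intervals. Below them each small circle is 1 gene of a partner or target list, filled red where it passed (limma adjusted p below 0.05), with the list median as a black line. The 3 partner lists have medians between -0.19 and -0.09, and the respiratory chain list has its median at 0.93.

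The mean centred level of other estrogen-related receptor targets was 0.17 to 0.83 on arrays labelled iPGC-1β/APCmin and -0.54 to -0.15 on arrays labelled FVBN/APCmin, with no overlap. Outside the respiratory chain 14 of 30 tested target genes passed as higher and 0 as lower, with a median difference of 0.66. Among all genes tested, 2.22% passed as higher and 1.23% as lower. The 4 with the smallest p were Sirt3, a mitochondrial deacetylase (1.82, limma adjusted p = 0.00184), Fh1, the fumarase of the TCA cycle (0.96), Sod2, the mitochondrial superoxide dismutase (0.99), and Prdx5, a peroxiredoxin (1.13). Each of these 4 genes passed in all 12 fits that left out 1 array, and none passed in the model that adds the lymphocyte level, where Sirt3 differed by 1.79 (limma adjusted p = 0.0706). In that model 5 of 10967 genes passed, and Fh1 differed by 1.03 (SE 0.21, limma adjusted p = 0.0998), beside an SE of 0.15 without the covariate. Over the 13 other settings the Sod2 difference ran from 0.90 to 1.18 and that of Prdx5 from 0.88 to 1.33.

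Factors that express mitochondrial DNA, a step between the nuclear respiratory factors and the organelle, rose in part. Of 16 tested genes 14 were higher, 3 passed as higher and 0 as lower, with a median difference of 0.25. The shares among all genes tested were 2.22% passed as higher and 1.23% as lower. Lrpprc, which stabilises mitochondrial mRNA, rose by 1.01 (limma adjusted p = 0.0289), Tfb2m, which opens mitochondrial promoters with the RNA polymerase, by 0.72 (adjusted p = 0.0388) and Tefm, the elongation factor (listed as 1110002N22Rik), by 0.85 (adjusted p = 0.0487). Tfb2m passed in 4 of 12 fits that left out 1 array, Tefm in 2 and Lrpprc in 8, where the arrays whose omission lost Lrpprc were 1, 3, 5 and 11. Among 13 other settings Tefm lost its call in 7, and Lrpprc and Tfb2m in 2 each. All 3 lost it in the model that adds the lymphocyte level, at limma adjusted p-values of 0.181 for Lrpprc, 0.226 for Tfb2m and 0.402 for Tefm. In that model 5 of 10967 genes passed, and Lrpprc differed by 1.19 (SE 0.31) and Tefm by 0.77 (SE 0.31). With all arrays and no covariate the SE was 0.22 for each. The Tfb2m difference ran from 0.56 to 0.82 over the 13 other settings. Tfam, the classical NRF-1 and NRF-2 target that packs mitochondrial DNA, averaged 10.08 in iPGC-1β/APCmin and 9.77 in FVBN/APCmin, a difference of 0.31 that did not pass (limma adjusted p = 0.375). Tfam lies outside the naming rule and was chosen after its value was seen.

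Cofactors that act on the PGC-1 proteins did not pass. Of 22 tested genes 9 were higher and 13 lower, 0 passed by limma, 4 had an unadjusted p below 0.05, and the median difference was -0.19. The 3 with the smallest p were Mef2c, a muscle and lymphocyte transcription factor (-2.47, limma adjusted p = 0.0865), Lpin1, a phosphatidate phosphatase that also binds PGC-1α (0.62, adjusted p = 0.129), and Ncor1, a corepressor of nuclear receptors (-0.64, adjusted p = 0.130). Mef2c passed without array 6 (-2.97) or array 7 (-3.25), and in the model that adds the lymphocyte level its sign turned, to 0.39. Ncor1 passed without array 7, at -0.78 (limma adjusted p = 0.0309). Over all genes 731 of 10825 passed without array 6 and 1822 of 10861 without array 7. Lpin1 passed with array quality weights (0.75), with the smooth muscle level in the model (0.64) and without arrays 6 and 7 (0.77). Mef2c passed in these fits too, and Ncor1 without arrays 6 and 7. They called 2403 of 10967, 1062 of 10967 and 2174 of 10699 genes, in that order. In the model that adds the lymphocyte level Lpin1 differed by 0.20 (limma adjusted p = 0.900). Sirt1, the deacetylase that acts on PGC-1α, had nearly equal means of 8.15 in iPGC-1β/APCmin and 8.05 in FVBN/APCmin and was chosen after its value was seen.

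Among nuclear receptors that partner PGC-1 proteins 1 of 14 tested genes passed, as lower, with a list median of -0.15. Over all genes tested 1.23% passed as lower. That gene was Nr1h4, the bile acid receptor FXR, which averaged 10.20 in iPGC-1β/APCmin and 11.24 in FVBN/APCmin. Nr1h4 fell by 1.04 (limma adjusted p = 0.0300) with no overlap between the groups. The groups did not overlap for 3 of the 14 genes, beside 2.82% of all genes tested. The others were Nr5a2 (-1.22, limma adjusted p = 0.105) and Nr2f6 (0.56, adjusted p = 0.0788), named after their values were seen. Nr1h4 passed in 8 of 12 fits that left out 1 array and lost the call without array 1, 2, 4 or 11. The ileal enterocyte and epithelial marker lists were also lower in this comparison (medians -0.49 and -0.40), and their part in the Nr1h4 difference was not tested. In the list of HCF-1 and NRF-2 partners 0 of 16 tested genes passed by limma and 2 had an unadjusted p below 0.05, with a median difference of -0.09. Its smallest p-values belonged to Bap1, a deubiquitinase bound by HCF-1 (0.48, limma adjusted p = 0.0852), Gabpb2, the second NRF-2 partner subunit (-0.47, adjusted p = 0.201), and Hcfc1r1, a regulator of HCF-1 localisation (0.40, adjusted p = 0.275).

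Over the 12 arrays, the genes whose log2 level ran most like that of Ppargc1b were Lrrc49, 9130017N09Rik and Ttyh3, with Pearson correlations of 0.92, 0.91 and 0.91. The genes most like Esrra were Cyp2d40, Nkiras2 and Sprr2b, with correlations of 0.92 each. None of these 6 genes passed the comparison of the groups (limma adjusted p = 0.0952 to 0.608). They are the highest among all genes tested for each regulator and describe only these arrays, which share 1 table and 1 normalization.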

How the data were processed

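Total RNA of 12 ileum tumours was hybridised to Illumina bead arrays. Per the file headers, the deposited unnormalized table gives an average signal intensity and a detection p-value per probe and array, made with GenomeStudio per the submitters' processing notes (version not given). The authors' second deposited table holds normalized intensity whose column medians run from 157.8 to 158.1. Its scale is linear as read from the values, and its method is not stated.

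The deposited intensities went through limma 3.58.1 (R 4.3.3): neqc (background from the detection p-values, offset 16, quantile normalization, log2), then the filter (14827 probes kept), the brightest kept probe per symbol, lmFit and eBayes with an intensity trend. A gene was called at p below 0.05 after Benjamini-Hochberg adjustment over 10967 genes. Precision is limited by having 6 arrays a group. Of 254 list entries 235 were on the array, 16 under another symbol matched through RefSeq. Sequences came from RefSeq (GRCm38.p6).

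The named genes were all members, up to 4 called genes of each list (else the 3 with the smallest p), and the 3 genes most like Ppargc1b and Esrra. Members, lists and rules were chosen with earlier results of these data known. Alternatives covered background, normalization, filter, probe choice, variance model, weights, the authors' table, 2 covariates and left-out arrays.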

Additional observations from a re-analysis of the deposited data

Results flagged for a closer look

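Nrf1 on array 7, labelled iPGC-1β/APCmin, had a log2 level of 9.83, far from the other arrays of its group, of which the nearest was at 9.08. The gap took up 0.76 of the group's range, above the 95% limit of Dixon's test for 6 samples. It was the 1 such value among 24 groups of member probes checked, and chance gives about 1 in 20. The level of array 7 lay within the FVBN/APCmin range, and the same array had the highest lymphocyte level of all 12.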

How the results depend on the processing

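The 13 other settings and the 12 fits without 1 array left every tested member except Gabpb1 and Hcfc1 on the same side of 0, and 22 of these 25 alternatives called no member. Ppargc1b kept its negative sign throughout, between -1.07 and -0.30. Of all genes tested, 378 passed, against 200 with no filter, 2403 with array quality weights, 5 with the lymphocyte level as a covariate, 1062 with the smooth muscle level as a covariate and 2174 without arrays 6 and 7. Leaving out 1 array gave 128 to 1822, a move of over 1.5 times for every array but 8 and 9. Members past the threshold numbered 2 with array quality weights (Esrra and Nrf1), 1 without arrays 6 and 7 (Nrf1), and 0 to 1 without 1 array. The 22 respiratory chain genes became 11 after a shift to a common 75th percentile, 12 with no filter, 61 with array quality weights, 0 with the lymphocyte covariate, 35 with the smooth muscle covariate, 50 without arrays 6 and 7 and 6 to 55 without 1 array, while their median difference ran from 0.76 to 1.12. The sign of Gabpb1 turned with an offset of 50 (-0.012), with no background correction (-0.012), with array quality weights (-0.050), in the authors' normalized table (-0.012) and without arrays 6 and 7 (-0.11), and it ran from -0.10 to 0.13 without 1 array. The sign of Hcfc1 turned with array quality weights (-0.036) and without arrays 6 and 7 (-0.094), and it ran from -0.11 to 0.079 without 1 array. Mef2c turned to 0.39 with the lymphocyte covariate. The Gabpa difference was 0.19 as the mean of its probes. Nr1h4 lost its call after the shift to the 75th percentile (limma adjusted p = 0.0610) and with the lymphocyte covariate (0.228). The cause of these changes was not tested, other than that the fit without a filter tests more genes. Signal near background limits Esrrb, Esrrg and the dimmer Gabpa probes. No paired analysis was possible because the samples carry running numbers that the groups do not share.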
